A study of Brugia malayi with 68 samples.

Results

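Adult females of the filarial nematode Brugia malayi were compared after treatment of their host with diethylcarbamazine and after no treatment, with both collection days pooled. The members were chosen by their labels: 6 female libraries with diethylcarbamazine and 6 untreated female libraries, which makes 12 of the 68 libraries of the series. Each group held 3 libraries from day 1 and 3 from day 7 after treatment, and libraries with the same day and replicate number formed 6 pairs.

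The worms grew in Mongolian gerbils that had been infected by intraperitoneal injection of infective larvae and kept for 4 months, until the infection was patent. Diethylcarbamazine was given to the gerbil at 6 mg/kg, so the worms met the drug inside the host and not in culture. The untreated groups carry the solvent name DMSO in one label, while the treatment protocol describes their hosts as left without drug. Females from gerbils dosed with albendazole (1 mg/kg) or with ivermectin (0.2 mg/kg), 12 libraries in all, males with diethylcarbamazine or untreated (12 libraries) and microfilariae with diethylcarbamazine or untreated (10 libraries) were used only for comparison. RNA came from worms sorted as females, males or microfilariae; how many worms or gerbils each library pooled is not given in the sources used here.

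Brugia malayi is one of the worms that cause lymphatic filariasis. A mature female carries developing embryos in its uterus and releases microfilariae, the first-stage larvae that circulate in the host and are taken up by mosquitoes. RNA of a whole female is therefore RNA of the mother's tissues and of the embryos and stretched larvae inside it. Diethylcarbamazine is a piperazine derivative long used against filariasis. It is known for clearing microfilariae from the blood within a short time, an action that depends in part on the host's immune response and on arachidonic acid metabolism, and its molecular target in the worm is less settled than those of the other drugs. The question here was whether it changed transcript levels in the adult female, including those of genes that microfilariae use most.

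The table lists 11590 gene identifiers, of which 0 matched the reference table of 11688 genes. Genes are therefore given by identifier, without names or functions, and gene groups are defined by stage. Total counts of the 12 libraries ran from 2112032 to 22894844, both in the diethylcarbamazine group (day 7 replicate 2 and day 1 replicate 2), and from 6455701 to 16812365 in the untreated group. Between 10261 and 11104 genes had a count. Both libraries of the day 1 replicate 3 pair stood apart from the rest: the 100 most abundant genes took 20.7% of the counts of the untreated library and 20.8% of those of the diethylcarbamazine library, against 12.5% to 14.6% in the other 10, and their TMM scaling factors were 0.684 and 0.590, against 1.04 to 1.15.

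The 6 stage sets used below were taken from 23 libraries that are not among the 12: untreated microfilariae, untreated males, and females given albendazole or ivermectin. Each holds 100 genes. The microfilaria genes come from 247 genes that qualified as at least 4-fold higher in microfilariae than in females and in males. They are the 100 ranked highest by the smaller of both folds. The female genes, male genes, adult genes, and female and microfilaria genes were chosen in the same way, from 464, 1173, 717 and 323 genes. The genes abundant in microfilariae are the 100 with the highest counts per 1e6 counts of the library (CPM) in untreated microfilariae, whatever their level elsewhere. The female label was checked with the male genes. Their summed level was 15.1 to 41.2 CPM in 22 of the 24 female libraries, which is 0.0488% to 0.133% of their level in untreated males. It was 398.6 CPM (1.29%) in the diethylcarbamazine library of day 1 replicate 1 and 586.5 CPM (1.89%) in the untreated library of day 7 replicate 2. Each of these libraries belongs to a different pair. The sum of the microfilaria genes, the gene calls and the difference from males are given with and without both pairs. In the male libraries used for comparison, the summed level of the female genes was 2274 and 3099 CPM in the diethylcarbamazine libraries of day 1 and day 7 replicate 1, against 162 to 209 CPM in the other 10.

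**Figure D1:**
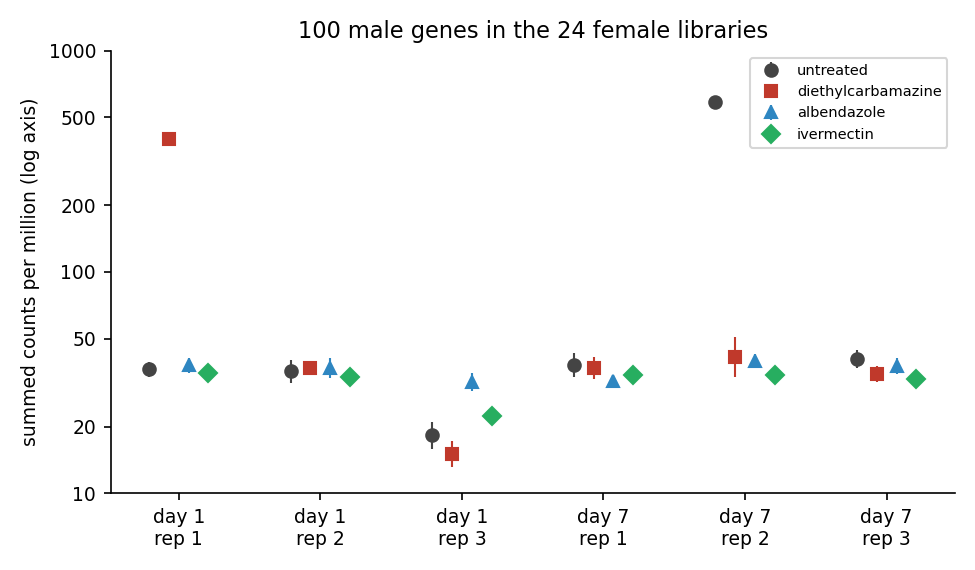
Summed level of the 100 male genes (CPM, log axis) in the 24 female libraries, by day and replicate, with 1 marker per treatment and 95% Wilson intervals for counting error. The 2 high points, at 398.6 and 586.5 CPM, are the diethylcarbamazine library of day 1 replicate 1 and the untreated library of day 7 replicate 2, and the other 22 lie between 15.1 and 41.2 CPM.

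Few genes changed past the threshold in females with diethylcarbamazine. In edgeR's quasi-likelihood test on the 6 pairs, 4 of 9738 genes tested rose and 0 fell at a Benjamini-Hochberg adjusted p under 0.05, which is 0.0411% of the genes tested. Beyond those 4, small differences were widespread: at an unadjusted p under 0.05, 1070 genes (11%) were higher and 686 (7.04%) were lower, and 551 genes (5.66%) were higher and 374 (3.84%) lower in all 6 pairs. The median log2 fold change over all genes tested was -0.00 and the biological coefficient of variation 0.106.

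Microfilaria genes were lower in the females with diethylcarbamazine in most pairs. Their summed level over all 100 members, in CPM of the library total, was 419 with diethylcarbamazine and 451 without in day 1 replicate 1, 389 and 615 in replicate 2, and 258 and 351 in replicate 3. On day 7 it was 300 and 449 in replicate 1, 518 and 508 in replicate 2, and 524 and 723 in replicate 3. The drug library was thus below its untreated partner in 5 of 6 pairs, and the groups overlapped. The mean was 401 ± 110 CPM with diethylcarbamazine and 516 ± 133 CPM without (SD, n = 6), and within pairs the mean log2 ratio was -0.37 ± 0.27 (SD, n = 6), a ratio of 0.773. Untreated microfilariae held 25361 ± 3835 CPM of the same genes (SD, n = 5). Males, which carry no embryos, held 326 ± 29.2 CPM untreated and 343 ± 27.2 CPM with diethylcarbamazine (SD, n = 6), so the female sum is not a measure of larval RNA alone. The male diethylcarbamazine libraries of day 1 and day 7 replicate 1 held some female transcripts. In whole worms, fewer embryos or larvae, less RNA of these genes in each of them, and a lower level in the mother's own tissues cannot be told apart.

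The pair that did not share the direction, day 7 replicate 2, holds the untreated library with male transcripts and the shallowest library of the 12. The pair with the next smallest difference, day 1 replicate 1, holds the other library with male transcripts. Without both of these pairs the mean log2 ratio was -0.54 ± 0.10 (SD, n = 4). The part of the male transcripts in the difference was not tested. With libraries scaled by TMM instead of by their totals the ratio over the 6 pairs was -0.29, and with sets of 200 genes it was -0.13.

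The difference was not carried by a few abundant members. The 10 members with the highest CPM held 59.9% of the sum and the highest held 14.8%. Without the highest member the mean log2 ratio was -0.34, without the 10 highest -0.36, over the 51 members that passed the filter on low counts -0.37, and over the 49 that did not -0.34.

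Gene by gene, 41 of the 51 microfilaria genes tested had a fitted log2 fold change below 0, against 51.1% of all genes tested, and none of the 51 passed the edgeR threshold (smallest adjusted p 0.108). The median was -0.28, with the middle of the distribution from -0.41 to -0.05 and a range from -1.41 to 0.22. At an unadjusted p under 0.05, 14 were lower and 0 higher, and 6 were lower and 0 higher in all 6 pairs, beside 7.04% and 3.84% of all genes that were lower by these measures. In a summary added after the data were seen, genes were divided into quintiles by CPM in the females given albendazole or ivermectin: 36 of the 51 lay in the scarcest quintile and 13 in the next, whose medians over all genes were -0.07 and -0.08. Of all genes in these quintiles, 37.5% and 29.7% had a log2 fold change above 0. At an unadjusted p under 0.05, 7.19% and 13.3% were lower, and 4.62% and 6.52% were lower in all 6 pairs. The set median was -0.27 on day 1, with 40 of 51 lower, and -0.23 on day 7, with 44 of 51 lower.

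**Figure D2:**
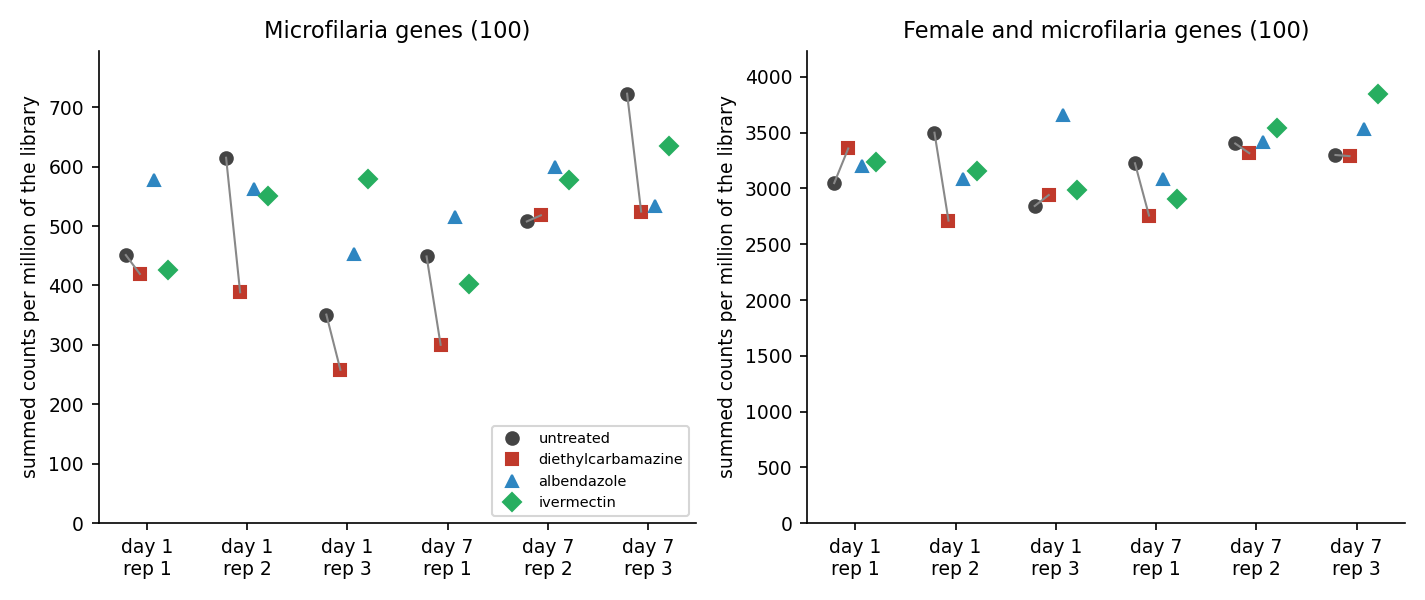
Summed level (CPM of the library total, not scaled by TMM) of the microfilaria genes (left) and of the female and microfilaria genes (right) in each female library, by day and replicate; markers show the 4 treatments and lines join untreated and diethylcarbamazine libraries of a pair. The microfilaria genes were lower with diethylcarbamazine in 5 of 6 pairs (419 against 451 CPM to 258 against 351 CPM on day 1), while the female and microfilaria genes were lower in 4 of 6.

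Among the microfilaria genes, WBGene00220492 and WBGene00230892 had the highest CPM in untreated females, not corrected for transcript length. WBGene00220492 had 65.8, 89.5 and 25.8 TMM-scaled CPM in the untreated libraries of day 1, replicates 1 to 3, and 63.9, 48.0 and 24.96 in their partners with diethylcarbamazine. On day 7 it had 70.5, 77.9 and 90.5 CPM untreated and 30.2, 65.8 and 82.3 CPM with the drug. It was lower in 6 of 6 pairs, by a wide margin in day 1 replicate 2 and day 7 replicate 1 and narrowly in the others, and its fitted log2 difference was -0.44 (SE 0.14, adjusted p = 0.153 in edgeR). WBGene00230892 had 55.7, 66.0 and 15.3 CPM untreated on day 1 and 35.8, 48.1 and 17.3 CPM with diethylcarbamazine, and 43.4, 52.1 and 82.1 CPM against 25.3, 58.4 and 61.7 CPM on day 7. It was lower in 4 of 6 pairs, and its fitted log2 difference was -0.36 (SE 0.11, adjusted p = 0.153 in edgeR and 0.0469 in limma voom). Neither passed the edgeR threshold, and the groups overlapped for both.

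The lowest log2 fold changes of all genes tested, -1.41 (SE 0.42, edgeR adjusted p = 0.139) and -1.35 (SE 0.39, edgeR adjusted p = 0.131), belonged to 2 microfilaria genes and were highest in the same 2 untreated libraries. The first was lower with the drug in 4 of 6 pairs and the second in 5 of 6. The first had 39.8 CPM in the untreated library of day 1 replicate 3 and 50.4 CPM in that of day 7 replicate 3, and between 2.75 and 6.82 CPM in the other 4 untreated libraries. With diethylcarbamazine it had 2.52 to 7.58 CPM. The second had 15.8 CPM in the untreated library of day 7 replicate 3, 6.15 CPM in that of day 1 replicate 3 and 2.14 to 2.94 CPM in the other untreated libraries, against 1.40 to 3.79 CPM with the drug. In both genes the highest of the 24 female libraries was that with ivermectin of day 1 replicate 3, at 109.1 and 17.6 CPM. Without both genes the set median was -0.27. The summed level of the set without them was not computed. These genes were singled out after their values were seen.

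Genes shared by females and microfilariae had a median nearer 0. All 100 were tested; 64 had a log2 fold change below 0, with a median of -0.12, 23 were lower and 10 higher at an unadjusted p under 0.05, and 6 were lower and 2 higher in all 6 pairs. Over all genes tested, 7.04% were lower and 11% higher at that p, and 3.84% lower and 5.66% higher in all pairs, so the 10 higher at that p and the 6 lower in all pairs are near those shares. Their summed level was 3063 ± 295 CPM with diethylcarbamazine and 3220 ± 241 CPM without (SD, n = 6), with a mean log2 ratio of -0.07 ± 0.19. The median depended on the day 1 replicate 2 pair, without which it was -0.01. The female genes had a median of -0.02 (63 of 100 lower) and the adult genes of -0.03 (58 of 100 lower), both near the median of all genes. Of the male genes 12 passed the filter, and their median of 0.17 moved with the 2 libraries that held male transcripts: it was 1.60 on day 1, with 12 of 12 higher, and -1.08 on day 7, with 12 of 12 lower.

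The genes abundant in microfilariae had a median above 0. Of the 100, 81 had a log2 fold change above 0, with a median of 0.11, 19 were higher and 7 lower at an unadjusted p under 0.05, and 14 were higher and 1 lower in all 6 pairs. None passed the edgeR threshold, while DESeq2 called 10 of them higher, beside 2.91% of all genes and 180 of the 1948 in the most abundant quintile. Most of these genes are abundant in females too: 94 of the 100 lay in the most abundant quintile, whose median over all its genes was 0.10. In that quintile 27.3% of genes were higher at an unadjusted p under 0.05 and 12.9% in all 6 pairs, against 19 and 14 of the 100. The set shared 6 genes with the microfilaria genes. The medians of these 2 sets thus lay on opposite sides of 0 in these females.

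**Figure D3:**
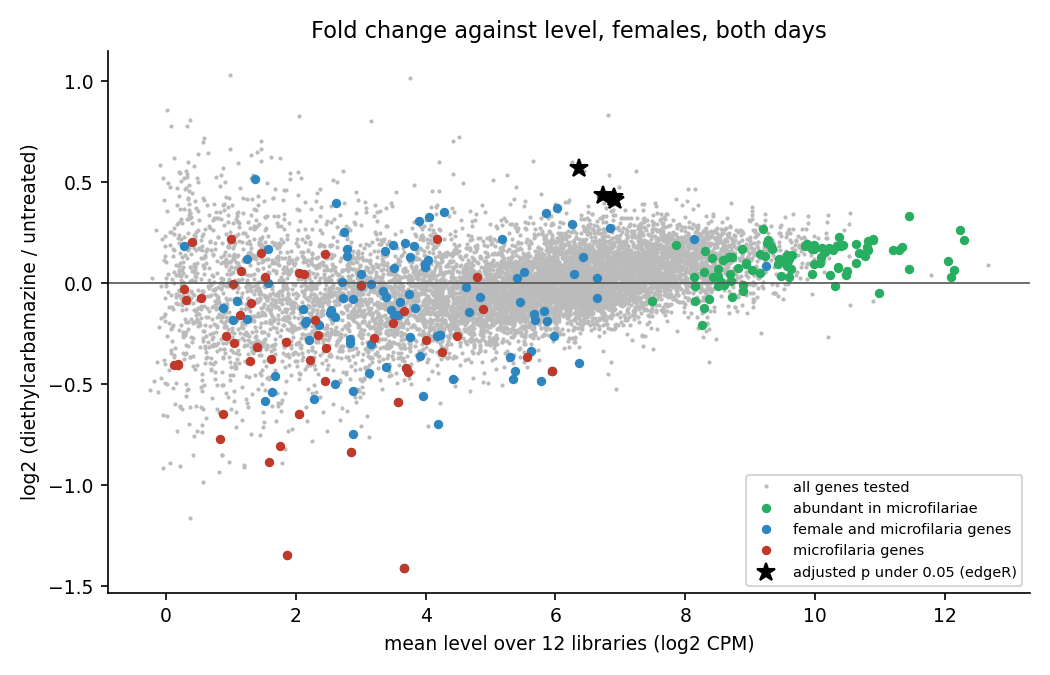
Log2 fold change (diethylcarbamazine over untreated, edgeR, 6 pairs) against mean level (log2 CPM over the 12 libraries) for the 9738 genes tested, with 3 stage sets in colour and the 4 genes past the threshold as stars. Most tested microfilaria genes lie below 0 at low levels (41 of 51), and most genes abundant in microfilariae lie above 0 at high levels (81 of 100).

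The 4 genes that rose were moderately abundant in females and did so in every pair. WBGene00226383 was expressed mainly by females: its level in the libraries that defined the stage sets was 67.6 CPM in females, 5.94 CPM in males and 11.1 CPM in microfilariae. On day 1 it had 80.3, 44.4 and 115.0 TMM-scaled CPM in the untreated libraries of replicates 1 to 3 and 111.8, 76.4 and 184.3 CPM in those with diethylcarbamazine. On day 7 the values were 50.6, 59.0 and 47.5 CPM untreated and 70.9, 87.3 and 64.7 CPM with the drug. The groups overlapped: the untreated library of day 1 replicate 3 lay above every diethylcarbamazine library but its own partner, while within pairs the gene was higher by 0.45 to 0.78 on the log2 scale. The fitted log2 fold change was 0.57 (SE 0.07, edgeR adjusted p = 0.0049), a fold of 1.49, with 0.64 on day 1 and 0.50 on day 7.

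WBGene00222235, with 103.1 CPM in females, 111.2 CPM in microfilariae and 36.0 CPM in males, rose 1.36-fold. Its untreated and drug values were 90.9 and 111.1 CPM, 56.1 and 79.9 CPM, and 130.6 and 200.2 CPM in the day 1 pairs, and 113.3 and 149.3 CPM, 74.3 and 100.1 CPM, and 75.7 and 99.8 CPM in the day 7 pairs. On the log2 scale the change was 0.44 (SE 0.06, edgeR adjusted p = 0.0275), and the groups overlapped again with the day 1 replicate 3 pair highest. The other 2 genes rose by 0.41 and 0.43 on the log2 scale, each with an edgeR adjusted p of 0.0491. None of the 4 is among the genes abundant in microfilariae.

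These calls were sensitive to the fit. WBGene00226383 passed the threshold in 11 of 14 alternatives; it did not without the pair as a block (adjusted p = 1.00), with all 24 female libraries in the fit (0.265), or without the day 1 replicate 3 and day 7 replicate 2 pairs together (0.0918). WBGene00222235 lost its call in 8 of 14, and the other 2 genes in 9 of 14 each. The log2 fold changes stayed between 0.53 and 0.60 for WBGene00226383, between 0.39 and 0.47 for WBGene00222235, and between 0.33 and 0.44 and between 0.37 and 0.47 for the other 2, over the 14 alternatives. Without the day 1 replicate 1 pair 86 genes passed (76 higher and 10 lower), without the day 7 replicate 1 pair 14, and without any 1 of the other 4 pairs only 1. Without both pairs that held male transcripts 3 genes passed, among them 1 of the 4. DESeq2 called 283 genes higher (2.91%) and 10 lower (0.103%), with no adjusted p given for 5853, and limma voom called 47 higher and 18 lower (0.667% in all). All 4 edgeR genes were called by both, and 34 of the genes called higher were shared by DESeq2 and voom.

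**Figure D4:**
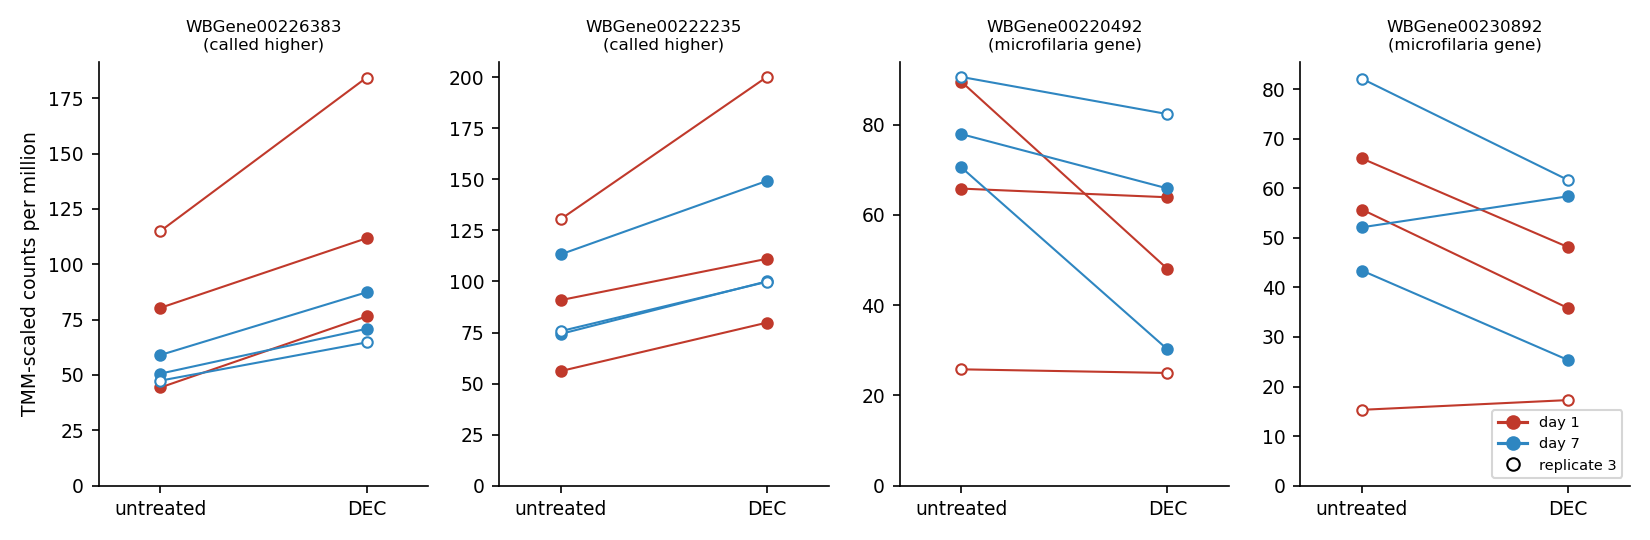
TMM-scaled CPM of WBGene00226383 and WBGene00222235, which rose, and of the microfilaria genes WBGene00220492 and WBGene00230892, which did not pass the threshold, in untreated and diethylcarbamazine (DEC) females; each line is 1 of 6 pairs, coloured by day, with replicate 3 as open circles. Every line rises for the first 2 genes (for example 44.4 to 76.4 CPM for WBGene00226383), and 6 of 6 and 4 of 6 lines fall for the others.

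Across all genes the direction of the difference followed abundance. The medians of the log2 fold change in the 5 quintiles, from the scarcest genes to the most abundant, were -0.07, -0.08, -0.02, 0.02 and 0.10. Against the same untreated libraries, which the drugs share, they were -0.07, -0.03, -0.01, 0.01 and 0.03 with ivermectin and -0.03, 0.04, 0.03, 0.01 and -0.05 with albendazole. In day 1 replicate 3 the 100 most abundant genes took 20.7% of the counts untreated and 19.7% with ivermectin, but 12.3% with albendazole. The part of this unlike library in the albendazole medians was not tested. In the most abundant quintile (1948 genes) 532 genes were higher and 26 lower at an unadjusted p under 0.05, and 252 were higher and 17 lower in all 6 pairs; in the next to scarcest (1947 genes) 62 were higher and 259 lower, and 26 and 127 in all pairs. Of the 283 genes that DESeq2 called higher, 180 (63.6%) lay in the most abundant quintile. DESeq2 gave no adjusted p for 5853 of the 9738 genes, and called 0 higher in the scarcest quintile and the next. That share is therefore not a measure of the trend. The median of the most abundant quintile without the members of the stage sets was 0.09.

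The 6 pairs did not show this pattern alike. The median of the most abundant quintile was 0.19 in day 1 replicate 2 and 0.20 in day 1 replicate 3, 0.05, 0.13 and 0.05 in the day 7 pairs, and -0.02 in day 1 replicate 1. Day 1 replicate 1 was thus the exception, with its scarcest quintile at 0.06. The share of counts in the 100 most abundant genes was higher with diethylcarbamazine in 6 of 6 pairs, by 0.369 ± 0.189 percentage points (SD, n = 6; exact two-sided sign-flip permutation test p = 0.0312, the smallest that 6 pairs allow, and 0.0469 adjusted over 3 such shares). For the 500 most abundant genes the difference was 1.04 ± 0.753 points in 6 of 6 pairs with the same exact p, and for 1000 genes 1.39 ± 1.17 points in 5 of 6 (exact permutation p = 0.0625). These summaries were chosen after the data were seen, and each larger group of genes contains the smaller. Their p-values are therefore a description. RNA quality was not given for these libraries, and its part in the pattern was not tested.

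The excess of higher over lower genes depended on 2 of the pairs. Without day 1 replicate 3 and day 7 replicate 2, 576 genes were higher and 718 lower at an unadjusted p under 0.05, against 1070 and 686 with all pairs, and with all 24 female libraries in the fit 486 were higher and 496 lower. With DESeq2's size factors in place of TMM the split was 1222 to 565. The median of the most abundant quintile stayed between 0.06 and 0.11 and that of the next to scarcest between -0.11 and -0.06 over the 14 alternatives.

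**Figure D5:**
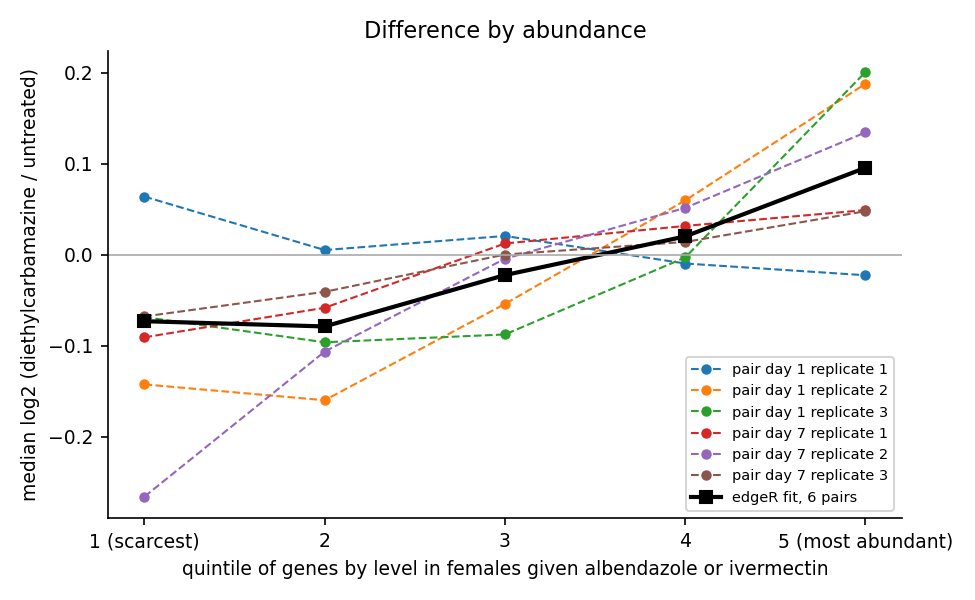
Median log2 ratio of diethylcarbamazine over untreated in quintiles of genes ordered by level in females given albendazole or ivermectin; dashed lines are the 6 pairs and the black line the edgeR fit. The fitted medians run from -0.07 in the scarcest to 0.10 in the most abundant quintile, and the pair of day 1 replicate 1 runs the other way, from 0.06 to -0.02.

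The effect did not differ detectably between the days. In the test of day 7 minus day 1 within the same 12 libraries, 0 of 9738 genes (0%) passed the edgeR threshold, 146 were higher (1.5%) and 221 lower (2.27%) at an unadjusted p under 0.05, and DESeq2 called 0. The log2 fold change had the same sign on both days for 6227 of the 9738 genes. Taken by day, 944 genes were higher and 549 lower at an unadjusted p under 0.05 on day 1, and 284 and 201 on day 7, with 0 past the adjusted threshold on either day in edgeR. By the rule for named genes, WBGene00221125 and WBGene00230483 had the smallest p among those with a larger difference on day 7 in every pair (1.62, SE 0.44, and 1.38, SE 0.43, on the log2 scale; edgeR adjusted p = 1.00 for both). WBGene00221125 had 2.75, 1.26 and 0.745 CPM with the drug and 3.82, 1.70 and 1.21 CPM without it on day 1, and 2.03, 2.63 and 1.93 CPM against 0.993, 1.20 and 0.829 CPM on day 7, all low levels. WBGene00230642 and WBGene00228108, at -3.73 (edgeR adjusted p = 0.703) and -5.99 (edgeR adjusted p = 0.877), are male-expressed genes with 747 and 2514 CPM in males. WBGene00221125 and WBGene00230483 were also higher in males, at 12.3 and 17.1 CPM, than in females, at 1.53 and 1.96 CPM. WBGene00228108 had 24.9 CPM in the diethylcarbamazine library of day 1 replicate 1 and 42.0 CPM in the untreated library of day 7 replicate 2, the libraries with male transcripts, and at most 1.37 CPM in the other 10.

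Diethylcarbamazine was next set against the other drugs in females, in a contrast in which the untreated libraries cancel. Of 10070 genes tested in 24 libraries, 0 passed the edgeR threshold (0%), 547 were higher (5.43%) and 476 lower (4.73%) at an unadjusted p under 0.05, and DESeq2 called 4 higher and 4 lower. WBGene00226383 lay 0.50 above the mean of albendazole and ivermectin (log2, SE 0.11, edgeR adjusted p = 0.406). For the other genes called in females this difference was smaller, at 0.24 (WBGene00222235), 0.35 and 0.20 (edgeR adjusted p = 0.483 for each). WBGene00230504 was higher by 0.31 (SE 0.07, edgeR adjusted p = 0.406), and WBGene00225117 and WBGene00225764 had differences of -0.45 (SE 0.10, edgeR adjusted p = 0.406) and -0.40 (SE 0.10, edgeR adjusted p = 0.471). WBGene00225117 had 12.6 to 17.9 CPM in the 6 untreated libraries and 8.20 to 13.2 CPM with diethylcarbamazine, and was lower in 6 of 6 pairs. WBGene00222235 was also higher with ivermectin than untreated. With TMM over the 24 libraries it had 115.2, 110.1 and 173.4 CPM with ivermectin and 93.4, 57.6 and 133.6 CPM untreated on day 1. On day 7 it had 119.1, 99.3 and 120.8 CPM with ivermectin and 116.2, 76.3 and 77.6 CPM untreated. By the same scaling WBGene00226383 had 82.0, 59.6 and 120.8 CPM with ivermectin and 82.6, 45.5 and 117.7 CPM untreated on day 1. Its day 7 values were 68.6, 81.8 and 72.2 CPM with ivermectin against 51.9, 60.6 and 48.7 CPM untreated. The called genes given without identifier were higher with ivermectin than untreated in every pair, in some narrowly.

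In this contrast 65 microfilaria genes were tested, of which 53 were lower (51.7% of all genes were), with a median of -0.31; 21 were lower and 0 higher at an unadjusted p under 0.05, and 8 lower and 0 higher in all 6 pairs, beside 2.71% of all genes that were lower and 5.14% that were higher in all pairs. The summed level with diethylcarbamazine was below the mean of the other 2 drugs in 6 of 6 pairs, by a mean log2 ratio of -0.45 ± 0.32 (SD, n = 6), and it was the lowest of the 4 arms in 5 of 6. Albendazole and ivermectin libraries held 540 ± 52.4 and 529 ± 93.0 CPM (SD, n = 6). Over the untreated libraries, which all 3 drugs share, the mean log2 ratios were 0.10 ± 0.32 with albendazole and 0.05 ± 0.35 with ivermectin, against -0.37 ± 0.27 with diethylcarbamazine. The females given albendazole or ivermectin also served to choose the stage sets and quintiles, so these differences are a description. Without day 1 replicate 3 the set median in this contrast was -0.28, with 55 of 66 lower, while that of the genes abundant in microfilariae went from 0.12 to 0.04 and that of the most abundant quintile from 0.12 to 0.05. With all pairs, the medians over all genes of the scarcest quintile and the next were -0.04 and -0.09 in this contrast.

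Males and microfilariae with the same drug were set beside the females. In males 0 of 10021 genes passed the edgeR threshold (0%), with 245 higher (2.44%) and 285 lower (2.84%) at an unadjusted p under 0.05, and in microfilariae 0 of 9502 (0%), with 231 higher (2.43%) and 278 lower (2.93%). In microfilariae, 73 of the 100 microfilaria genes had a log2 fold change below 0 (50.8% of all genes did), with a median of -0.09. In males 24 of the 56 tested were below 0, with a median of 0.05. The untreated libraries of both comparisons also served to choose this set, as high in microfilariae and low in males. These values of the set are therefore a description only. The most abundant quintile, with a median of 0.10 in females, had a median of -0.05 in males and 0.01 in microfilariae; these differences were not tested. WBGene00226383 had log2 fold changes of 0.45 (SE 0.24, edgeR adjusted p = 0.821) in males and 0.02 (SE 0.17, edgeR adjusted p = 0.994) in microfilariae. The male drug libraries of day 1 and day 7 replicate 1 held female transcripts, and this gene is expressed mainly by females. The part of these transcripts in the male values of this gene, the microfilaria genes and the quintile was not tested.

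The test of the difference between females and males called 66 of 10423 genes (0.633%), 6 with a higher and 60 with a lower log2 fold change in females. Without the male pairs of day 1 and day 7 replicate 1, whose drug libraries held female transcripts, 0 genes passed in edgeR (1063 higher and 729 lower at an unadjusted p under 0.05), and without the female pairs that held male transcripts 35 did. Among the female genes 45 of 100 were called lower, and their median in the female pairs alone was -0.02. The female genes were chosen in part as low in the untreated males of this test, so that count is a description. WBGene00222049, with 38.3 CPM in females and 0.196 CPM in males, had a female minus male difference of -3.24 (SE 0.33, edgeR adjusted p = 0.000201), while in the females it had 33.7 ± 8.60 CPM with the drug and 38.1 ± 11.1 CPM without (SD, n = 6). WBGene00225511 differed by -3.61 (SE 0.39, edgeR adjusted p = 0.000228), with 151 ± 58.4 CPM and 145 ± 50.5 CPM in females with and without the drug. Without the male replicate 1 pairs these differences were -1.70 and -0.98. The genes higher in females were closer to the threshold. WBGene00236098 differed by 0.52 (SE 0.10, edgeR adjusted p = 0.0290), being higher in 6 of 6 female pairs by 0.07 to 0.25, and WBGene00227972 by 0.54 (SE 0.11, edgeR adjusted p = 0.0310), being higher in 6 of 6 female pairs by 0.01 to 0.50. Without the male replicate 1 pairs these 2 lost their call (edgeR adjusted p = 0.140 for both) while their differences were 0.54 and 0.60.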

How the data were processed

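The deposited table holds raw counts of reads per gene, 1 column per library, not normalised by the authors. The submitters' processing notes name TopHat2 2.0.14 and, for HTSeq, version 0.6.1p1; the genome build, annotation and counting options are not given in the sources used here, and reads of near-identical genes may be split between them. Per the labels' protocols, total RNA was sequenced after strand-specific TruSeq preparation. Columns were joined to samples by label, and all 68 were mapped.

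Counts were analysed with R 4.3.3, edgeR 4.0.16 (quasi-likelihood test, TMM, filterByExpr at min.count 10 and min.total.count 15), limma 3.58.1 and DESeq2 1.42.0; figures used Python 3.11.15 and matplotlib 3.10.9. The model held pair (day by replicate number) and drug. Tests were two-sided with Benjamini-Hochberg adjustment over all genes tested and a threshold of 0.05. Direction in all 6 pairs used log2 CPM with a prior count of 2. The fits were tested on simulated data.

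Pairing follows the series' design, in which each replicate held every treatment. Deviations of same-numbered libraries from their group means correlated at 0.70, 0.81 and 0.90 on day 1 and 0.51, 0.02 and 0.43 on day 7. Day 7 replicate 2 thus fell below the minimum of 0.1 set for a pair, and its best match was replicate 3. It was kept as a pair by its label, except where a fit leaves it out. The design calls the replicates biological. No replicates of a group were indistinguishable within sampling noise (lowest chi-square per degree of freedom 4.38).

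Named genes were those past the threshold and alike in direction in every pair, by smallest p, at most 2 per direction because the files give identifiers only; where none passed, the smallest p among genes alike in every pair, and for the microfilaria genes the 2 of highest level in untreated females. Stage sets needed an adjusted p under 0.05, a 4-fold difference and 1 CPM in the naming stage, in an edgeR fit of 10588 genes. Members and lists were chosen with earlier results of these data known. Intervals cover counting error only. Alternatives were other scaling, filter, tests, no pair block, pairs left out, all 24 female libraries and sets of 50 and 200 genes; leaving out the pairs with male transcripts, the quintiles and TMM-scaled sums were added after the data were seen.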

Additional observations from a re-analysis of the deposited data

Results flagged for a closer look

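A library lay far from the others of its group in 4 of 28 groups of values examined, where chance alone gives about 1 in 20. The summed level of the male genes was 586.5 CPM in 1 of the 6 untreated female libraries, against at most 40.4 CPM in the others, and 398.6 CPM in 1 of the 6 diethylcarbamazine libraries, against at most 41.2 CPM in the others. The 100 most abundant genes took 20.7% of the counts in 1 untreated library, with the next at 14.2%, and 20.8% in 1 diethylcarbamazine library, with the next at 14.6%; both are day 1 replicate 3.

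The effect of diethylcarbamazine differed between females and males for 66 genes in the test of the interaction. Of the named genes, the female minus male difference was 0.52 (log2) for WBGene00236098, 0.54 for WBGene00227972, -3.24 for WBGene00222049 and -3.61 for WBGene00225511. Without the male replicate 1 pairs 0 genes passed; in the same order the differences were then 0.54, 0.60, -1.70 and -0.98.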

How the results depend on the processing

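The count of 4 genes in females became 10 with DESeq2 size factors, 14 with no filter on low counts, 293 with DESeq2, 65 with limma voom, 0 with all 24 female libraries, 0 without the day 1 replicate 3 and day 7 replicate 2 pairs, and 1 to 86 with 1 pair left out; the cause was not tested. With no replicate block 0 genes passed, and 41 were higher and 100 lower at an unadjusted p under 0.05. Without both female pairs that held male transcripts 3 genes passed. Day 7 minus day 1 gave 8 genes with no filter and 0 to 2 with 1 pair left out. Diethylcarbamazine minus the other drugs gave 8 with DESeq2 and 1 without the day 1 replicate 3 and day 7 replicate 2 pairs. Female minus male gave 206 with DESeq2, 0 with no replicate block, 0 without the male replicate 1 pairs, 35 without the 2 female pairs with male transcripts, and 4 to 79 with 1 pair left out.

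The median of the microfilaria genes lay between -0.37 and -0.20 over 16 alternatives and the log2 ratio of their sum between -0.54 and -0.13 over 12. The genes abundant in microfilariae lay between 0.08 and 0.13, and the female and microfilaria genes between -0.18 and -0.01. The median of the male genes ranged from -0.68 to 1.19 and has no stable direction. No other set or quintile median, summed level or named gene changed sign under the alternatives run. Day 7 replicate 2, with 2112032 counts, limits the precision of its pair.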
